A study of Homo sapiens with 4 samples.

Results

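The ligands described here are 9 genes whose proteins are read by natural killer (NK) cells or macrophages through receptors other than NKG2D and DNAM-1. They are CD48, NCR3LG1, BAG6, CD58, CLEC2B, CLEC2D, CD47, ICAM2 and ICAM3, chosen by name as ligands of 2B4, NKp30, CD2, NKp80, NKRP1A and LFA-1 and as the CD47 signal. All 9 were found among the 22410 genes with a value, each as the transcript cluster (the set of array probes for 1 gene) that carries its symbol alone. The cells were U266, an established human multiple myeloma line, labelled as plasma cells, for which the labels give no allele or transgene. All 4 arrays come from this 1 line, grown in the same medium. They were cultured for 24 h with trabectedin, an agent that binds the minor groove of DNA, or kept as control. The 2 arrays of each group are labelled as biological replicates, which by the methods come from separate experiments. The dose is 2.5 nM and the controls are untreated by the sample labels, whereas the treatment protocol has 2.5 μM for the dose and PBS for the controls. RNA was hybridized to Affymetrix Human Transcriptome Arrays, and all values below are log2 expression values after RMA normalization. The ligands are not ranked by level, as each cluster has probes of its own. Levels of different genes enter only as above or below the median gene and in sums over markers, as rough guides.

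NK cells weigh signals from activating and inhibitory receptors before they degranulate. CD48 and CD58 are related immunoglobulin-like surface proteins that bind the receptors 2B4 and CD2, and NCR3LG1 (B7-H6) and BAG6 are ligands of the activating receptor NKp30. CLEC2B (AICL) and CLEC2D (LLT1) are lectin-like proteins encoded in the NK gene complex, of which CLEC2B engages the activating receptor NKp80 and CLEC2D the inhibitory receptor NKRP1A. ICAM2 and ICAM3 bind the integrin LFA-1 and so hold the NK cell on its target. CD47 binds SIRPα on macrophages and restrains phagocytosis. The study followed NK degranulation and the ligands of NKG2D and DNAM-1, and the comparison made here asks whether the other ligands moved in the same RNA.

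The upstream sequences of NCR3LG1 and CD48 are shown because these were the ligands with the highest and the lowest change. They are the 250 bases before the gene's start from RefSeq (GRCh38.p14), which holds an entry for 7 of the 9 ligands and for 5 of them exactly 1. Capitals mark the letters GGGCGG of a GC box on either strand.
NCR3LG1, chr11:17351550-17351799, plus strand: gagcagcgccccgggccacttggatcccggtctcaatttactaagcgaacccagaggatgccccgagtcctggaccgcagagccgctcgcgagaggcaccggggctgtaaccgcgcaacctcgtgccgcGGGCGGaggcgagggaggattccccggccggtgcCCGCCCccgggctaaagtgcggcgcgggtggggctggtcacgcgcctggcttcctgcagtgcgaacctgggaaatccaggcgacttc
CD48, chr1:160711823-160712072, minus strand: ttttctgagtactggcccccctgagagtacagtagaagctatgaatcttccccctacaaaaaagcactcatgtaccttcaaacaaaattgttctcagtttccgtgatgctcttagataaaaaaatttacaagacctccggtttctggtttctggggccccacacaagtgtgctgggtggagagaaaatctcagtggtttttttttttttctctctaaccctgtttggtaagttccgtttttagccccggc
The NCR3LG1 window was 70% G and C with 28 CpG dinucleotides and 2 GC boxes, while the CD48 window was 43.2% G and C with 4 CpG dinucleotides and no such match. Over 35116 windows of this length the median was 58% G and C with 11 CpG dinucleotides, and 42.6% held a GC box. Neither window held, on either strand, a CCAAT box (in 32% of all windows), a TATAAA box (in 10.7%), an E-box of the letters CACGTG (in 6.34%) or an E2F motif of the letters TTTCCCGC (in 1.39%). These matches describe letters only.

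Levels over all genes moved slightly with treatment, which sets the zero for each ligand. The median gene changed by 0.10 on the log2 scale, and 71% of the 22410 genes had a higher mean with trabectedin. By limma 0 genes passed at an adjusted p under 0.05 in either direction (0% called), against 7.3% higher and 6.7% lower at an unadjusted p under 0.05. A block for the replicate number gave 499 higher and 893 lower calls by limma among the 22410 genes. None was among the 9 ligands, a group too small for 0 calls to tell it from all genes. At least 1.5-fold, the limit that the methods set for network analysis, 627 genes (2.8%) were higher and 1038 (4.63%) lower. Scaled to ribosomal protein genes, these counts were 221 and 1489, and the median of all genes moved by -0.16. With 2 arrays against 2, a two-sided exact permutation test cannot go below p = 0.333, and the number of arrays limits the precision. Of 9 plasma cell markers, 9 had a level above the median gene, as did 1 of 7 NK cell, 0 of 6 T cell, 0 of 3 B cell and 1 of 5 monocyte and macrophage markers. Of the plasma cell markers 4 of 9 (SDC1, IRF4, XBP1 and POU2AF1) were lower without overlap, beside 13.5% of all genes. Lower by at least 1.5-fold were 2 of the 9, beside 4.63% of all genes. IRF4, a transcription factor of plasma cells, had log2 values of 13.84 and 13.32 with trabectedin, against 14.85 and 13.90 in control (log2 fold change -0.80, adjusted p = 0.424 by limma). XBP1, a factor of the unfolded protein response, had 12.38 and 12.29 with trabectedin, against 13.35 and 12.89 in control (log2 fold change -0.78, adjusted p = 0.175 by limma). The groups did not overlap for either gene, and for IRF4 they came close. The linear sum of the plasma cell markers, most of which is JCHAIN, was 17.77 and 17.76 with trabectedin and 17.99 and 17.69 in control on the log2 scale. The summed level of the T cell markers was 7.45 and 7.55 with trabectedin and 7.23 and 7.36 in control, and that of the monocyte and macrophage markers was 7.49 and 7.56 with trabectedin and 7.34 and 7.38 in control. The B cell markers summed to 6.34 and 6.32 with trabectedin and 6.19 and 6.29 in control. Of all genes 35.8% were higher on both treated arrays. So were the T cell, monocyte and B cell sums, most of whose markers lay below the median gene. Those of the NK cell markers, 8.07 and 8.05 with trabectedin and 7.997 and 8.09 in control, overlapped. The part of these shifts in the values of the ligands was not tested.

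None of the 9 ligands differed by 1.5-fold or more between trabectedin and control, and limma called none of them. NCR3LG1 and CD48 lay farthest from the median gene, in opposite directions, followed by ICAM2. BAG6, CD58, CD47, CLEC2B and CLEC2D were each within 0.1 of the median change of all genes on the log2 scale. Of the 9 ligands 7 had a higher mean with trabectedin, which is 77.8% beside the 71% of all genes, and 2 had a lower one. The lower of the treated arrays was above the higher control for 4 ligands (NCR3LG1, BAG6, CD58 and ICAM2), as in 35.8% of all genes, and the reverse held for 1 (CD48), as in 13.5% of all genes. In either direction the groups did not overlap for 5 of the 9 ligands and for 49.3% of all genes. These shares are near those of all genes. The median log2 fold change was 0.13 over the 9 ligands and 0.10 over all genes. The median of the ligands was 0.05 without trabectedin replicate 1, against 0.10 for all genes, 0.21 without control replicate 1, against 0.06, and -0.03 when scaled to ribosomal protein genes, against -0.06.

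**Figure D1:**
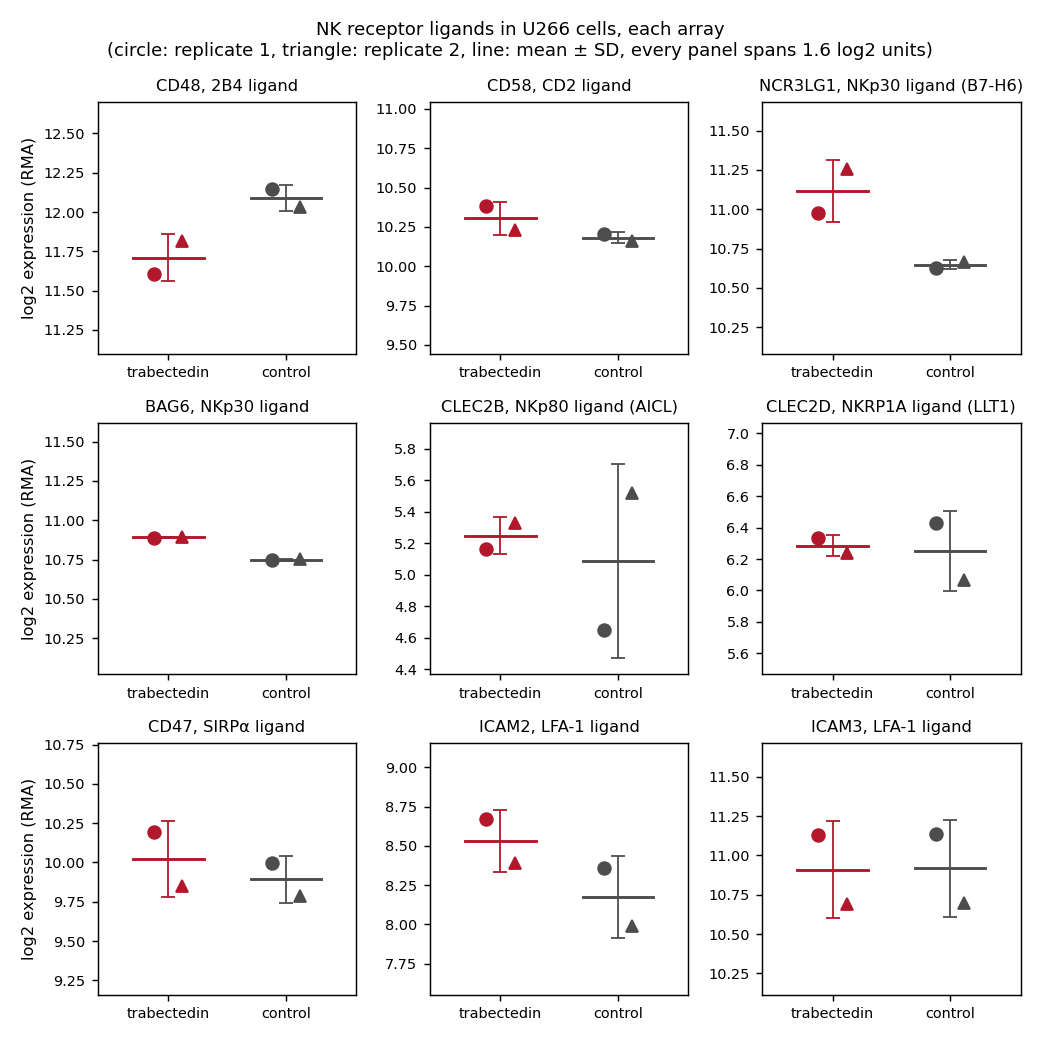
Log2 expression (RMA) of the 9 ligands on each array, with trabectedin left and control right in every panel, circles for replicate 1, triangles for replicate 2, and lines for the mean ± SD (n = 2 each). NCR3LG1, BAG6, CD58 and ICAM2 lie higher on both trabectedin arrays, CD48 lies lower on both, and the groups of the other 4 ligands overlap.

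NCR3LG1, the surface ligand of NKp30, had the highest change of the group. Its log2 values were 10.98 and 11.25 with trabectedin, against 10.63 and 10.67 in control. Both treated arrays lay above both controls, with a gap of 0.31 between the nearest values. The mean was 11.12 ± 0.20 with trabectedin and 10.65 ± 0.03 in control (SD, n = 2 each), which is 1.38-fold (95% interval 1.08 to 1.78). The log2 fold change was 0.47 (SE 0.14, adjusted p = 0.254 by limma), and 5.93% of all genes had a higher one. Relative to the median of all genes it was 0.37. It was 0.33 without trabectedin replicate 2, 0.61 if replicate 1 of that group was left out, and 0.31 when arrays were scaled to ribosomal protein genes, so that its direction held in each setting tried.

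BAG6, a chaperone of the cytosol and nucleus that tumor cells can release as a second ligand of NKp30, had the most even values between replicates. Its log2 values were 10.89 and 10.89 with trabectedin, against 10.75 and 10.75 in control. The groups did not overlap, and the difference was small. It amounted to a log2 fold change of 0.14 (SE 0.10, adjusted p = 0.582 by limma, 1.10-fold, 95% interval 0.91 to 1.33). Limma draws part of the spread from all genes, so that the standard error is wider than the spread of these 4 values alone. BAG6 lies in the MHC region, for which the array also carries clusters of alternative haplotypes. The 6 BAG6 clusters of this kind, which carry an older symbol too and may share probes with the first, differed by 0.12 to 0.14 between groups and did not overlap either. Those of the cox and ssto haplotypes held the same values on all 4 arrays, so that the 6 are not separate measurements. Scaled to ribosomal protein genes, BAG6 was at -0.02, and leaving out single arrays gave 0.14 to 0.15.

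CD48, the ligand of 2B4, was the only one of the 9 whose treated arrays both lay below the controls. Its log2 values were 11.60 and 11.81 with trabectedin, against 12.15 and 12.03 in control. The gap between the nearest values was 0.22. The mean was 11.71 ± 0.15 with trabectedin and 12.09 ± 0.08 in control (SD, n = 2 each), which is a log2 fold change of -0.38 (95% interval -0.72 to -0.04, SE 0.13, adjusted p = 0.312 by limma). Of all genes 92.7% had a higher change, and relative to the median of all genes CD48 was at -0.48. It was at -0.28 if trabectedin replicate 1 was left out, at -0.49 if trabectedin replicate 2 was, and at -0.54 when scaled to ribosomal protein genes. NCR3LG1 and CD48 were the 2 ligands at an unadjusted p under 0.05 by limma, beside 7.3% of all genes higher and 6.7% lower. A group of 9 is too small to tell its share from these. Which ligands passed this limit depended on the model. With the replicate number as a block ICAM2 passed too. After scaling to ribosomal protein genes, or after repeated quantile normalization, CD48 passed and NCR3LG1 did not. Among genes above the median level, and with a mean-variance trend, NCR3LG1 passed and CD48 did not. By the methods' t-test neither passed, and BAG6 was the only ligand that did.

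CD58, the ligand of CD2, had a slightly higher mean with trabectedin, where the related CD48 had a lower one, a difference between the genes that was not tested. Its log2 values were 10.38 and 10.23 with trabectedin, against 10.20 and 10.16 in control. The treated arrays were higher, with a gap of only 0.03 between the nearest values. The log2 fold change was 0.12 (SE 0.11, adjusted p = 0.655 by limma), close to the 0.10 of the median gene. It was 0.05 without trabectedin replicate 1, 0.20 if replicate 2 of that group was left out, and -0.04 when scaled to ribosomal protein genes.

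**Figure D2:**
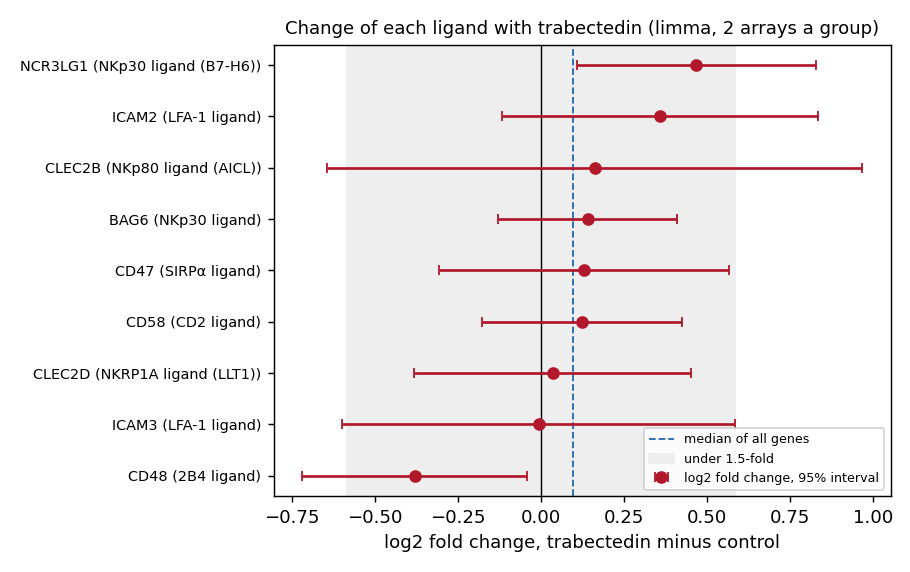
Log2 fold change (trabectedin minus control, horizontal axis) of each ligand with its 95% interval from limma, beside the median of all genes (dashed, 0.10) and the range under 1.5-fold (grey). All 9 points lie in the grey range, and the intervals of NCR3LG1 and CD48 are those that leave out 0.

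The lectin-like ligands CLEC2B and CLEC2D had the least settled direction when single arrays were left out, along with CD47 and ICAM3. CLEC2B, the ligand of NKp80, had log2 values of 5.16 and 5.33 with trabectedin, against 4.65 and 5.52 in control. The control arrays enclosed both treated arrays, and its mean over the 4 arrays was below that of the median gene, while no detection call was used to set it against background. Its log2 fold change was 0.16 (SE 0.31, adjusted p = 0.819 by limma), with a 95% interval of -0.64 to 0.97. It was 0.60 without control replicate 2 and -0.27 without control replicate 1. CLEC2D, the inhibitory ligand of NKRP1A, had log2 values of 6.33 and 6.24 with trabectedin, against 6.43 and 6.07 in control. Here too the controls lay on either side of the treated arrays, and the log2 fold change was 0.03 (SE 0.16, adjusted p = 0.929 by limma). It was -0.15 without control replicate 2, 0.22 if control replicate 1 was left out, and -0.01 without trabectedin replicate 1. A change of either gene was thus not detectable with these arrays.

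CD47, the signal that restrains phagocytosis, differed more between replicates than between groups. Its log2 values were 10.19 and 9.85 with trabectedin, against 9.9998 and 9.79 in control. The groups overlapped, and replicate 1 was the higher array in both. The log2 fold change was 0.13 (95% interval -0.31 to 0.57, SE 0.17, adjusted p = 0.739 by limma). Without trabectedin replicate 1 it was -0.04, without trabectedin replicate 2 it was 0.30, and scaled to ribosomal protein genes it was -0.03.

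Of the LFA-1 ligands, ICAM2 had a higher mean with trabectedin and ICAM3 had nearly the same mean in both groups. ICAM2 had log2 values of 8.67 and 8.39 with trabectedin, against 8.36 and 7.99 in control. The treated arrays were higher, and trabectedin replicate 2 was above control replicate 1 by 0.04. The mean was 8.53 ± 0.20 with trabectedin and 8.17 ± 0.26 in control (SD, n = 2 each), a log2 fold change of 0.36 (95% interval -0.12 to 0.84, SE 0.18, adjusted p = 0.458 by limma). It was 0.17 without control replicate 2, 0.22 without trabectedin replicate 1, 0.54 if control replicate 1 was left out, and 0.20 when scaled to ribosomal protein genes. ICAM3 had log2 values of 11.13 and 10.69 with trabectedin, against 11.13 and 10.70 in control. Each treated array was within 0.01 of the control array with the same replicate number, while replicate 2 was lower than replicate 1 by 0.44 in either group. Its log2 fold change was -0.01 (95% interval -0.60 to 0.59, SE 0.23, adjusted p = 0.99 by limma). It was 0.21 without either trabectedin replicate 2 or control replicate 1, and -0.23 without trabectedin replicate 1. Among all 9 ligands replicate 1 was the higher array in both groups for 5, replicate 2 in both for 3, and only CD48 had the order turned between groups.

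**Figure D3:**
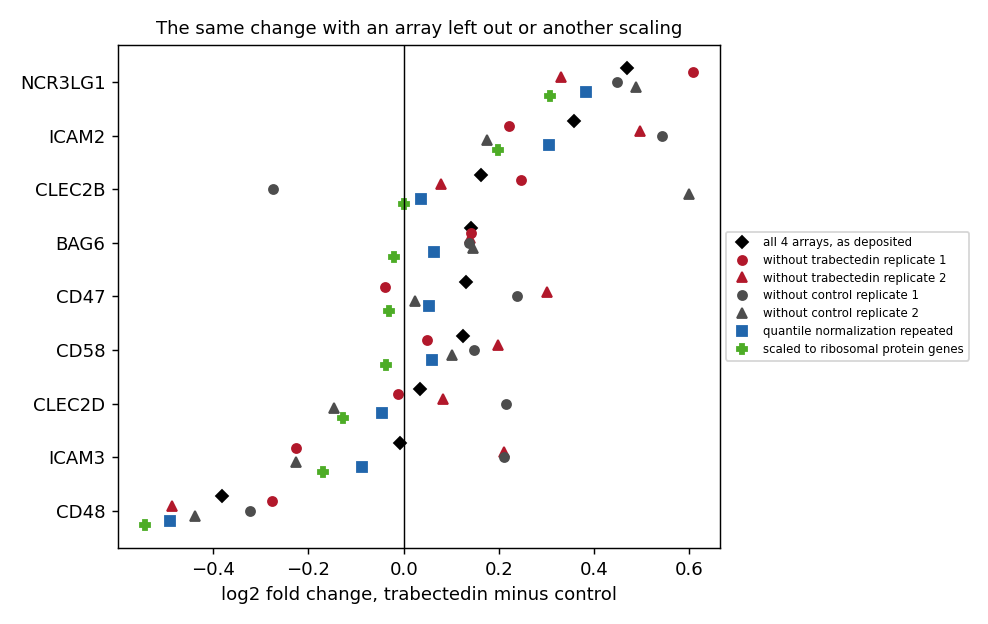
Log2 fold change (trabectedin minus control, horizontal axis) of each ligand over all 4 arrays, without each array in turn, after repeated quantile normalization and after scaling to ribosomal protein genes. NCR3LG1 and ICAM2 stay above 0 and CD48 below 0 in each of these settings, CLEC2B ranges from -0.27 to 0.60, and CLEC2D, CD47 and ICAM3 lie on both sides of 0.

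The ligands differed in gene length, a property that the choice of genes did not use. By RefSeq (GRCh38.p14) they span 5.85 kb (ICAM3) to 56.5 kb (CD58), with CD48 at 33.1 kb and NCR3LG1 at 29.9 kb, and none reaches 100 kb. Of all genes over 100 kb 26% were lower by at least 1.5-fold with trabectedin, against 2.31% of those of 30 to 100 kb, 0.4% of those of 10 to 30 kb and 0.721% of the shorter ones. The median log2 fold change was -0.08 over 100 kb, 0.07 from 30 to 100 kb, 0.13 from 10 to 30 kb and 0.13 under 10 kb. CD48 was thus below the median of its own length class, to which CD58 and CD47 also belong.

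Genes with the pattern most like these ligands were found by the root mean square distance of mean-centred log2 values over the 4 arrays. Nearest to NCR3LG1 were TRDV1 (distance 0.013), LINC02138 (0.016) and KCNIP4-IT1 (0.019), with log2 fold changes of 0.48, 0.46 and 0.45. The means of TRDV1 (4.84) and KCNIP4-IT1 (3.70) over the 4 arrays were below that of the median gene, and no detection call set them against background. Nearest to CD48 were ATG10, a conjugating enzyme of autophagy (distance 0.013), NSMCE2, a SUMO ligase (0.015), and AMPD3, an AMP deaminase (0.022), with log2 fold changes of -0.38, -0.36 and -0.43. These distances describe the 4 arrays only.

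The receptors of these ligands are made mainly by NK cells, T cells and macrophages. Of 10 receptors and counterparts 3 had a level above the median gene, none was called and none differed by 1.5-fold or more. The mean log2 value of CD244 (2B4) was 4.60 with trabectedin and 4.62 in control, and that of KLRF1 (NKp80) was 4.84 with trabectedin and 4.82 in control. ITGAL, a subunit of LFA-1, had log2 values of 7.12 and 7.03 with trabectedin, against 7.45 and 7.34 in control, without overlap (adjusted p = 0.332 by limma). ITGB2, the other subunit of LFA-1, had 5.299 and 5.37 with trabectedin, against 5.22 and 5.297 in control (adjusted p = 0.763 by limma). Its log2 fold change of 0.08 was below the 0.10 of the median gene, and its nearest values almost met. Of the 10 genes 3 were higher without overlap, beside 35.8% of all genes, and 2 were lower, beside 13.5%. THBS1, the secreted partner of CD47, had the lowest change, with log2 values of 6.15 and 6.61 with trabectedin, against 6.85 and 6.96 in control (log2 fold change -0.53, SE 0.18, adjusted p = 0.325 by limma). It was -0.30 without trabectedin replicate 1. SIRPG, a further receptor of CD47 on lymphocytes, had the highest at 0.22. The median of the list was 0.05, beside 0.10 for all genes.

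Among 15 other measured ligands of NK receptors and integrins 11 had a higher mean, none was called and none differed by 1.5-fold or more. ICAM1, the main LFA-1 ligand of many cells, had log2 values of 11.86 and 12.02 with trabectedin, against 12.50 and 12.49 in control. Both treated arrays were lower, and the log2 fold change was -0.56 (SE 0.12, adjusted p = 0.154 by limma). TNFSF9, the ligand of the costimulatory receptor 4-1BB, had the highest mean change at 0.46. Its values were 7.95 and 8.83 with trabectedin and 7.04 and 8.82 in control, so that replicates differed more than groups. In the SLAM family, to which CD48 belongs, CD244 is given above with the receptors. The list of other SLAM family genes and adaptors held 9 measured genes, without CD48. Of these 9, 2 (SLAMF1 and SLAMF9) were higher without overlap, against 35.8% of all genes, both at levels below the median gene. Lower without overlap were 0, against 13.5% of all genes, in a list too short to tell these shares apart. SLAMF6 had log2 values of 10.46 and 10.39 with trabectedin, against 11.51 and 10.45 in control. Control replicate 1 alone stood high. SLAMF7, the surface target of elotuzumab in myeloma, had 9.40 and 10.41 with trabectedin, against 8.81 and 10.39 in control. Here replicate 2 was the higher array in both groups. SLAMF6 had a log2 fold change of -0.55 with all arrays and -0.02 without control replicate 1, and for SLAMF7 the spread between replicates was above 1 in either group.

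Around BAG6, the list of its partners and of the proteases that shed surface ligands held 8 measured genes, of which 1 was lower by at least 1.5-fold. ADAM10, a protease that can shed NCR3LG1 from the cell, had log2 values of 11.25 and 11.41 with trabectedin, against 12.30 and 12.05 in control. Both treated arrays lay below both controls. The log2 fold change was -0.84 (SE 0.14, adjusted p = 0.113 by limma, range 0.036 to 0.501 over its alternatives), and the gene spans 161 kb. For ADAM17, the other protease of this list, the groups overlapped, with a log2 fold change of 0.05 (adjusted p = 0.882 by limma). The list of genes that act on the CD47 signal held 9 measured genes, of which 1 passed 1.5-fold, downward. This was NFKB1, an NF-kB subunit, with log2 values of 8.22 and 8.42 with trabectedin, against 8.95 and 9.06 in control (log2 fold change -0.68, SE 0.13, adjusted p = 0.13 by limma, range 0.0317 to 0.503). That gene spans 116 kb. On the log2 scale the median change was 0.17 over the BAG6 list and -0.18 over the CD47 list, beside 0.10 for all genes. The median of the BAG6 list was 0.08 without control replicate 1 and 0.07 without trabectedin replicate 2.

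For comparison, the 10 ligands of NKG2D and DNAM-1 had a median log2 fold change of 0.18, against 0.13 for the 9 ligands described here. The order of these medians turned when 1 array was left out, at 0.05 against 0.21 without control replicate 1 and 0.14 against 0.20 without trabectedin replicate 2. Of these 10, 1 was higher by at least 1.5-fold, and 0 of the 9 were, beside 2.8% of all genes. This was MICA, measured by a cluster of an alternative MHC haplotype. It had log2 values of 8.84 and 8.40 with trabectedin, against 7.62 and 7.87 in control (log2 fold change 0.87, adjusted p = 0.166 by limma). MICB, also measured by a cluster of such a haplotype, had 14.14 and 13.60 with trabectedin, against 13.71 and 12.99 in control. Its groups overlapped, though each treated array was above the control of the same replicate number. The log2 fold change of MICB was 0.51 (adjusted p = 0.522 by limma). The study reports both MICA and MICB as significantly upregulated in its expression profiles of U266. The treated arrays lay above both controls for 4 of the 10 and for 4 of the 9, as in 35.8% of all genes. The difference between the groups of ligands was not tested.

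**Figure D4:**
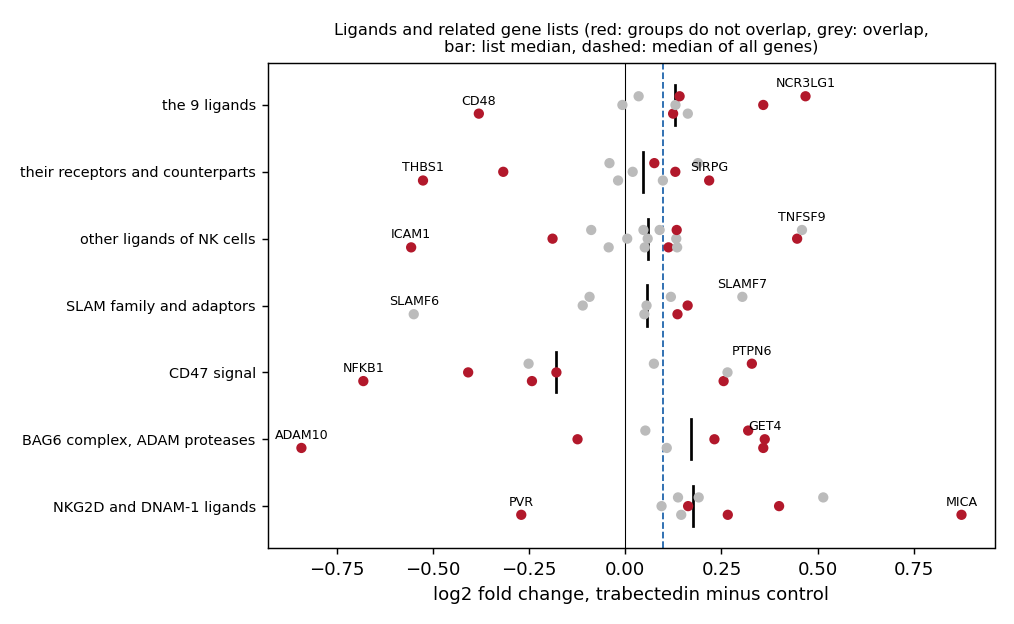
Log2 fold change (trabectedin minus control, horizontal axis) of the 9 ligands and of 6 related gene lists, with points in red where the groups do not overlap, bars for list medians and a dashed line for the median of all genes (0.10). The 9 ligands lie between -0.38 and 0.47, ADAM10 is the lowest gene shown at -0.84 and MICA the highest at 0.87.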

How the data were processed

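U266 cells were profiled on 4 Affymetrix Human Transcriptome Arrays, 2 with trabectedin and 2 controls. The authors scanned the arrays and deposited log2 values made by RMA in Affymetrix Expression Console, a method that corrects background, normalizes by quantiles and summarizes the probes of each cluster. The software version and the annotation release were not given in the sources used here. On each array 843 to 899 features exceeded a log2 value of 16, above the usual range of RMA values, and the step that led to these is not given either.
Gene symbols were read from the annotation of the platform and updated through RefSeq synonyms. Of 70523 features 23781 had 1 symbol, 1543 several and 45199 none. For each of 22410 genes the value was that of the single-symbol cluster with the highest mean. Trabectedin and control arrays entered lmFit and eBayes without a block (limma, version 3.58.1, with R 4.3.3), with Benjamini-Hochberg adjustment over all genes and a threshold of 0.05. The fit was tested on simulated data. No detection calls were used. Upstream windows were read in Python 3.11.15, and figures were drawn with matplotlib 3.10.9.
Members, lists and tests were chosen with earlier results of these data known. All 9 members were named. In other lists, genes of at least 1.5-fold without overlap were named, or else the highest and lowest, while lists of markers of other cell types were given by counts and sums. CD244, KLRF1, ITGAL, ITGB2, MICB and ADAM17 were added after their values were seen. Genes nearest in pattern were named for the highest and lowest member. Alternatives left out each array, added the replicate number as a block, set arrays to 47 ribosomal protein genes, normalized by quantiles again, kept genes above the median level, fitted a mean-variance trend, averaged the clusters of a gene, replaced limma by the methods' t-test and moved the fold threshold. The BAG6 haplotype clusters were added after seeing the data.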

Additional observations from a re-analysis of the deposited data

How the results depend on the processing

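No ligand was called in any setting tried, and most of these settings called no gene at all. NCR3LG1, ICAM2 and CD48 kept their direction throughout. Leaving out 1 array at a time, CLEC2B ranged from -0.27 to 0.60, CLEC2D from -0.15 to 0.22, CD47 from -0.0401 to 0.30, ICAM3 from -0.23 to 0.21, SLAMF7 from -0.49 to 1.10 and TNFSF9 from -0.44 to 1.35 on the log2 scale. With an array left out, its group's remaining array is assumed to vary like the other group. In these fits the ligands higher by at least 1.5-fold numbered 0 to 1 (CLEC2B without control replicate 2, NCR3LG1 without trabectedin replicate 1). Those lower without overlap numbered 1 to 3, against 1 with all arrays, and those higher without overlap 4 to 6, against 4. Groups separate more easily when 1 of them holds a single array, so the larger counts do not show more change. The share of all genes without overlap was not counted in these fits. Genes called by limma ranged from 0 to 5 higher and from 0 to 223 lower, the highest counts being those without trabectedin replicate 2. Genes at least 1.5-fold higher were 1275 without control replicate 2, 1007 if trabectedin replicate 1 was left out and 1127 if replicate 2 was, against 627. Genes at an unadjusted p under 0.05 and higher were 824 without control replicate 1, against 1635.
Scaling to ribosomal protein genes put BAG6 at -0.0203, CD58 at -0.0371, CLEC2D at -0.13 and CD47 at -0.0309. It left 1 ligand higher without overlap, against 4, while the share of all genes was not counted after this scaling. It gave 59 lower calls over all genes, against 0. Genes higher at an unadjusted p under 0.05 were then 381. Repeated quantile normalization put CLEC2D at -0.0458 and the median gene at 0.0014, with 367 genes at least 1.5-fold higher and 1006 higher at an unadjusted p under 0.05. Among genes above the median level, where CLEC2B has no value, that last count was 931. At the laxer fold threshold 2 ligands were higher and 1 lower, among 3008 and 1909 genes, and at the stricter one 41 and 454 genes passed. The methods' t-test gave 1400 higher and 992 lower genes at its threshold, against 1635 and 1501 by limma, and none once adjusted by Benjamini-Hochberg.
Adding the replicate number to the model as a block gave 499 higher and 893 lower calls by limma, against 0 and 0, with 3611 higher at an unadjusted p under 0.05. Among the named genes ADAM10 and NFKB1 passed (adjusted p = 0.036 and 0.0317), and no ligand did, with NCR3LG1 at 0.0761, ICAM2 at 0.11 and CD48 at 0.141. The differences of replicate 2 minus replicate 1 had a correlation of 0.56 across genes, which are not independent replicates, between trabectedin and control. Whether a number stands for 1 shared experiment is not stated. The cause of these changes was not tested.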
